A study of Mus musculus with 18 samples.

Results

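Neutrophils sorted from 3 barrier tissues were compared with neutrophils sorted from 3 hemopoietic compartments. The barrier side holds lung, colon (labelled Intestine) and ear (labelled Skin), and the other side holds bone marrow (labelled BM), blood and spleen. Each tissue has 3 libraries, so 9 barrier libraries were set against 9 others, and these 18 libraries are all the libraries of the series. All mice were C57BL/6 adults of 8 to 12 weeks, and the labels name no treatment and no genetic change on either side. The cells were sorted by flow cytometry on CD45, CD11b, Ly6G and DAPI, at a purity the protocol gives as typically over 95%. Libraries were made from total RNA with a cDNA amplification kit meant for single cells and read as 61-nt single ends. The labels number the replicates but do not say whether they came from separate animals, so the p-values cover the variation from library to library, part of which may be technical. A gene is called separated where its 3 barrier tissue means all lay above, or all below, the 3 hemopoietic tissue means. Of 16157 genes tested, 3651 were separated and passed the test of the barrier side against the other side. Counts over gene lists are of the genes that passed that test, whether separated or not.

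Neutrophils are made in the bone marrow, where they fill their granules in stages, and are released into the blood. They pass from blood into spleen, lung and other organs, and they live for a short time. Entry into a tissue uses selectins, integrins and chemokine receptors, and contact with the tissue or with microbes switches on immediate early genes and NF-kappaB target genes in these cells. Getting cells out of a solid organ needs cutting and usually digestion of the tissue, and blood does not need it. How each tissue was taken apart is not given in the sources used here, so that step and the tissue itself cannot be told apart.

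The libraries held 2935582 to 12087938 estimated reads each. Markers of other cells were checked first, because the comparison joins different organs. The summed level of 32 neutrophil genes was 1950.4, 1553 and 1879 scaled counts in the 3 Intestine libraries and 2693 in Skin replicate 1, against 9500.0 to 59110 in the other 14 libraries. A scaled count is an estimated read count divided by an effective size of the library, and not by gene length. It is not a plain CPM, because the effective size differed from the read total. The effective size was below the read total in the 3 Skin libraries, which raises their values against plain CPM. It was above the read total in the 3 Spleen libraries, which lowers theirs. The 20 genes of the stroma list summed to 642 to 24604 in the barrier libraries and to 53.2 to 220 in the hemopoietic ones, and all 20 passed the test as higher in barrier tissues. Of 22 endothelial genes, 21 passed as higher. Keratinocyte genes summed to 17751, 8126 and 1355 in Skin and to at most 194 elsewhere, and plasma cell genes to 23309, 6738 and 14042 in Intestine and to at most 689 elsewhere. Macrophage and monocyte genes overlapped, at 826 to 5768 against 618 to 1172. The part that RNA of these other cells plays in the results below was not tested. In bulk libraries, fewer cells of a type and less RNA per cell cannot be told apart. In addition, 12 genes with sequence related to Gm10800 took 26.4% to 54.7% of the counts in Skin and 1.07% to 9.02% elsewhere. The lowest value of a library stands for no estimated reads, as 0.216 does in Skin replicate 2. That library had the fewest genes above its lowest value, 9158 against 11833 to 16058 in the other libraries. Of the 141 genes that passed among those chosen to be named, 19 no longer passed without the Intestine libraries and Skin replicate 1 together, among them Csf3r, Myd88, Mcl1, Lyz2, Ctsd, Rora, Per2, Gbp7 and Oprm1. The gene lists are also given without these 4 libraries.

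**Figure D1:**
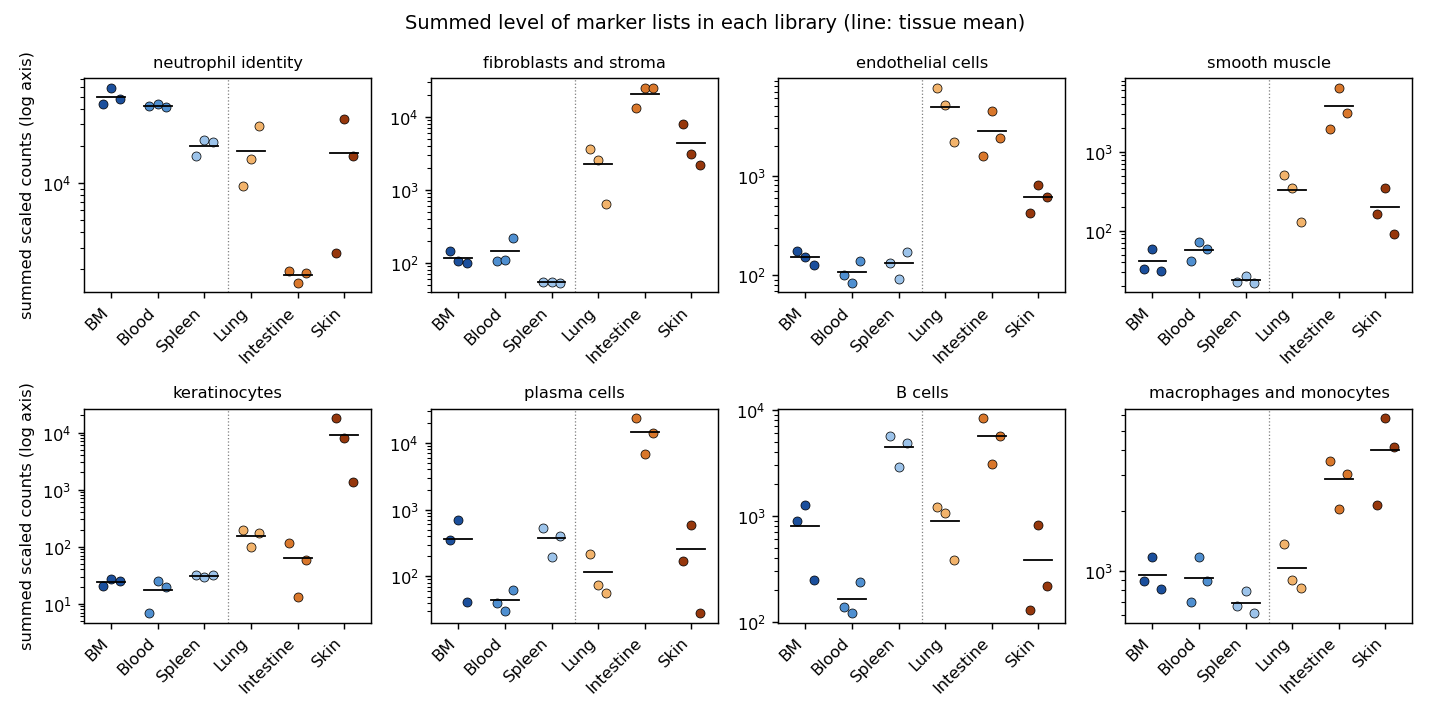
Summed scaled counts (log axis) of 8 marker lists in each of the 18 libraries, with BM, Blood and Spleen left of the dotted line and Lung, Intestine and Skin right of it; lines are tissue means. Neutrophil genes are lowest in the 3 Intestine libraries and Skin replicate 1, and all 9 barrier libraries are above the others in stroma, endothelial and smooth muscle genes.

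Gene by gene, 5104 of 16157 genes differed between the sides, which is 31.6% (limma, Benjamini-Hochberg adjusted p under 0.05). Of these, 2557 (15.8%) were higher in barrier tissues and 2547 (15.8%) were lower. With the 3 tissue means also on one side of the other 3, 1741 genes were higher (10.8% of those tested) and 1910 were lower (11.8%). Whatever their p, 2347 genes (14.5%) had all 3 barrier means above and 2800 (17.3%) had all 3 below. The split depended on the scaling: with median-of-ratios scaling, 67.0% of the called genes were higher, against 50.1% here. That scaling moved the median difference over all genes from -0.06 to 0.20 on the log2 scale. When the 6 tissue means replaced the 18 libraries as samples, 401 genes were higher and 127 lower. Simulated data had the spread of these libraries, the same for every gene, and no differences among tissues of the same side, unlike the real data. In that simpler case, 98.5% of genes changed 8-fold were recovered, 52.2% of genes changed 4-fold and 2.99% of genes changed 2-fold. Changes were placed only in genes above a minimum mean level, so recovery among lower genes was not measured. Genes that did not pass may therefore still differ by modest amounts.

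**Figure D2:**
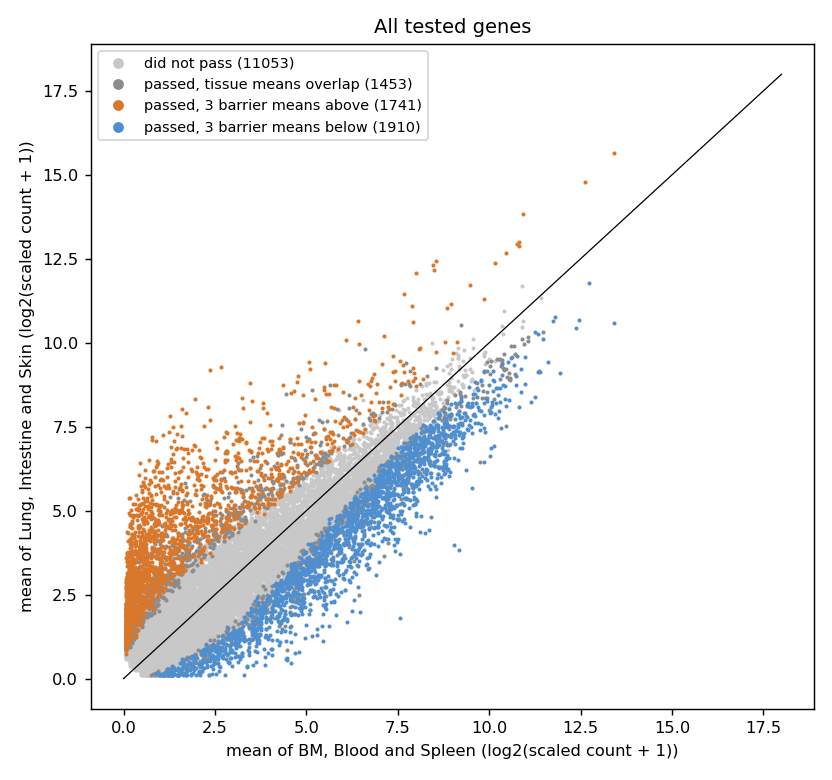
Mean log2(scaled count + 1) of the 3 barrier tissues (vertical axis) against that of the 3 hemopoietic compartments (horizontal axis), 1 point for each of 16157 tested genes. Orange points are the 1741 genes that passed with all 3 barrier means above, and blue points are the 1910 that passed with all 3 below.

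Of 1511 genes with a mean of at least 100 in every hemopoietic compartment, 50 (3.31%) were higher in barrier tissues with separated means. Many more of the 1511 went the other way, with 715 (47.3%) lower with separated means. Over all tested genes these shares were 10.8% and 11.8%. Of those 50 genes, 6 were mitochondrially encoded and 10 were related to Gm10800. Ahnak, which encodes a very large scaffold protein, had the largest difference of the other 34, at 3.79 ± 0.24 on the log2 scale (difference ± SE, adjusted p = 1.21e-09). Its scaled counts were 2542, 1908 and 998 in Lung, 4408, 4498 and 2134 in Skin and 3449, 4210.0 and 3849.6 in Intestine, against 109 to 311 in the 9 hemopoietic libraries. No barrier library overlapped a hemopoietic one. The level of 100 was chosen after the values were seen.

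The 10 genes per direction with the widest gap between the sides were taken, after leaving out the listed markers of other cells. The higher ones were Pmp22, Emp1, Pltp, Emp2, Sparcl1, S100a16, Ptprf, Igfbp5, Cavin1 and Hspa1a. Most of them are known from other cell types. Pmp22, Emp1 and Emp2 encode small membrane proteins of 1 family found widely in epithelial and stromal cells, Cavin1 is needed for caveolae, and Sparcl1 and Igfbp5 encode secreted proteins of connective tissue and vessels. Pmp22 (chr11:63128982-63159547, GRCm38) had 80.9, 59.1 and 49.5 scaled counts in Lung, 163, 147 and 30.8 in Skin and 96.5, 101 and 123 in Intestine. In the other 9 libraries it ran from 0.0364 to 1.4, so the sides did not overlap (log2 difference 5.97 ± 0.43, adjusted p = 5.37e-09). Emp1 ran from 21.9 to 688 (median 204) against 0.236 to 1.97 (median 0.545), with Skin replicate 3 lowest and Skin replicate 1 highest. Sparcl1 had tissue means of 293 ± 233 in Lung, 715 ± 273 in Intestine and 89.1 ± 60.7 in Skin (SD, n = 3), against 1.87 ± 1.12, 2.82 ± 2.62 and 0.605 ± 0.337 in BM, Blood and Spleen. Its barrier tissues also differed among themselves (F test adjusted p = 0.02). For all 10 genes every barrier library was above every hemopoietic library. This is a description, since the width of the gap chose them, and 227 genes (1.40%) had that pattern. The stroma sums given above and the endothelial sums were higher in the same 9 libraries, the latter at 426 to 7587 against 84.2 to 176.

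The lower 10 were Cdh23, Atg4d, Gm10521, Slfn4, Pik3r6, Map3k15, Cd46, Bola2, D1Ertd622e and Oprm1. Pik3r6, a regulatory subunit of the phosphoinositide 3-kinase that acts below chemoattractant receptors, had 0.392, 13.2 and 14.5 scaled counts in Lung, 16.4, 0.216 and 0.651 in Skin and 23.2, 0.622 and 7.87 in Intestine. In the hemopoietic libraries it ran from 32.5 to 62.7 (median 37.2). Its sides did not overlap, and the log2 difference was -2.95 ± 0.62 (adjusted p = 0.000963). Cd46, a regulator of complement, ran from 0.16 to 16.9 (median 1.7) against 26.1 to 95.3 (median 45.1) in the hemopoietic libraries, with Lung replicate 3 the highest barrier library. D1Ertd622e ran from 9.09 to 183 (median 63.9) against 413 to 1412 (median 702). Slfn4, a member of the Schlafen family that is found in myeloid cells, had 42.7 ± 11.8 in Lung, 4.36 ± 3.91 in Intestine and 125 ± 163 in Skin. Its sides overlapped, since Skin replicate 2 (311) lay above Spleen replicate 3 (84.8). Of the 10, 5 (Gm10521, Pik3r6, Cd46, Bola2 and D1Ertd622e) had all 9 barrier libraries below the others, as had 204 genes (1.26%), which again only describes genes chosen by their gap. Bola2, Oprm1, Cdh23, Atg4d and Map3k15 overlap genes on the other strand, and since use of strand in the counting is not stated, reads of the pairs may not be told apart. Oprm1 no longer passed without the Intestine libraries and Skin replicate 1 (adjusted p = 0.0784, and from 7.89e-07 to 0.0784 over the 38 alternatives). In Skin replicate 2 it stood at 159, above every hemopoietic library.

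**Figure D3:**
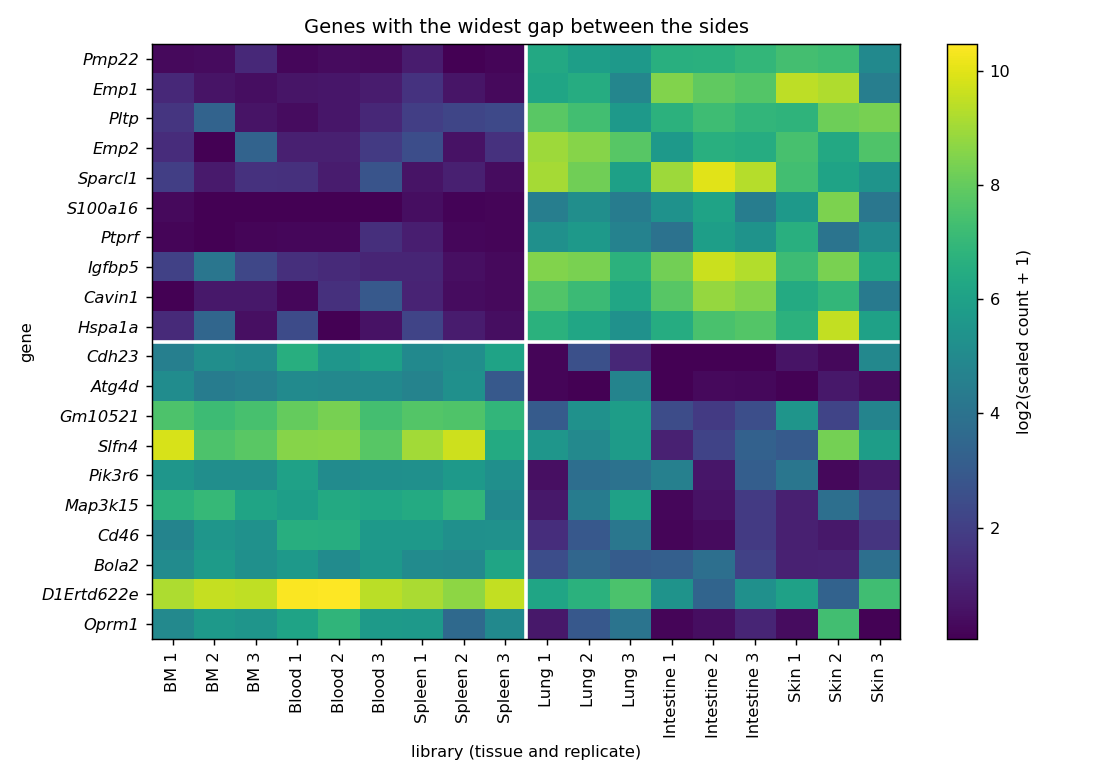
log2(scaled count + 1) of the 20 genes with the widest gap between the sides, 1 row per gene and 1 column per library. The upper 10 genes are high in all 9 barrier columns right of the white line, and the lower 10 are high in the 9 hemopoietic columns, with single exceptions such as Oprm1 in Skin replicate 2.

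Beyond the widest gaps, 13 of 13 mitochondrially encoded genes were higher in barrier tissues, with log2 differences of 2.90 to 5.12, and 7 of them had all 9 barrier libraries above. These genes encode subunits of the respiratory chain and the ATP synthase. Cytochrome b (mt-Cytb) had 34456, 11373 and 10034 scaled counts in Intestine, 2466, 3286 and 2506 in Lung and 3548, 8505 and 1883 in Skin, against 154 to 1035 in the hemopoietic libraries. Its log2 difference was 3.88 ± 0.29 (adjusted p = 6.95e-09). Mitochondrial genes together took 1.64% to 23.2% of the counts in barrier libraries and 0.209% to 1.15% in the others. The nuclear genes of the same complexes did not follow: of 43 tested, 2 were higher (Uqcrb and Uqcrfs1), 1 was lower (Sdhb) and 40 did not pass, with a median log2 difference of 0.09. Uqcrfs1 lost its call in 26 of the 38 alternatives and Sdhb in 18, and Sdhb changed sign without the Intestine and Skin libraries.

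With all 18 libraries, heat shock proteins had the largest share of higher members among 21 lists of cell states. Without the Intestine libraries and Skin replicate 1 immediate early factors had it, with 25 of 40, and with the 6 tissue means as samples angiogenic factors had it, with 5 of 28 against 4 of 25 heat shock genes. Heat shock proteins are chaperones that refold damaged proteins, and cells make more of them after warming, oxidation and other protein stress. Of 25 tested, 16 were higher (64.0%, against 15.8% of all genes), none was lower by limma (2 at an unadjusted p under 0.05), and the median log2 difference was 1.62 against -0.06 over all genes. Hspa1a and Hspa1b, the inducible Hsp70 genes, are near-identical neighbours on chromosome 17 whose reads the counting could split, so each is uncertain. Hspa1a had 102, 72.9 and 39.4 scaled counts in Lung, 105, 731 and 63.2 in Skin and 90.2, 176 and 206 in Intestine, against 0.0544 to 10.3 (median 0.781) in the hemopoietic libraries. Every barrier library was higher than every other one, and the log2 difference was 5.60 ± 0.55 (adjusted p = 3.17e-07). Hspa1b ran from 53.3 to 407 against 0.0598 to 14 (log2 difference 5.11 ± 0.50).

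Abundant chaperones rose by less. Hsp90ab1, the constitutive cytosolic Hsp90, had 627 ± 181 in Lung, 1286 ± 201 in Intestine and 942 ± 273 in Skin, against 352 ± 23 in BM, 142 ± 42.5 in Blood and 414 ± 68.3 in Spleen (log2 difference 1.72 ± 0.21, adjusted p = 4e-06). Lung replicate 3, at 461, lay just below the highest Spleen library at 483. Its inducible relative Hsp90aa1 ran from 249.5 to 782 against 63.4 to 157, without overlap. Hspa8, the constitutive Hsp70, differed by 0.92 ± 0.20. In the endoplasmic reticulum, Hsp90b1 differed by 1.71 ± 0.26 and was highest in Intestine, at 1525 ± 558 against 433 ± 213 in Lung and 327 ± 87.4 in Skin. Plasma cells are rich in that chaperone, and the plasma cell sum was highest in the same 3 libraries. Canx and Calr, the lectin chaperones calnexin and calreticulin, were not on the list and differed by 1.75 ± 0.26 and 1.46 ± 0.25. Bag3, a partner of Hsp70, had 37.8, 45.4 and 27.8 in Intestine, 44.3, 11.9 and 11.6 in Lung and 78.5, 0.216 and 2.7 in Skin. It had at most 1.11 elsewhere. The Skin replicate 2 value stands for no estimated reads, in the library with the fewest genes detected. Dnajb1 did not pass (log2 difference -1.31 ± 0.61, adjusted p = 0.107), and its sign changed without the Skin libraries. When the Intestine libraries and Skin replicate 1 were left out, 12 of the 25 genes were higher and none was lower, and 15 were higher with Lung as the only barrier tissue.

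Immediate early factors are transcription factors and regulators that need no new protein to be switched on. Of 40 tested, 18 were higher in barrier tissues (45%) and 5 were lower (12.5%), with a median log2 difference of 1.13. Fosb, an AP-1 subunit, had 704, 959 and 1559 scaled counts in Lung, 443, 837 and 871 in Skin and 199, 234 and 167 in Intestine. It had 3.39, 1.31 and 3.14 in BM, 45.8, 31.7 and 159.8 in Blood and 123, 74.4 and 80.3 in Spleen. The sides did not overlap, although Intestine replicate 3 was close to Blood replicate 3, and BM was the lowest tissue (log2 difference 4.26 ± 0.32, adjusted p = 7.38e-09). The orphan nuclear receptor Nr4a3 ran from 20.5 to 351 (median 125) against 0.145 to 6.44 (median 3.24), and its relative Nr4a1 had 1207 ± 531 in Lung, 103 ± 19.6 in Intestine and 590.1 ± 393 in Skin. Atf3 differed by 3.32 ± 0.35 and Maff by 3.94 ± 0.44, both bZIP factors and both without overlap of libraries. Egr1 and Jun differed by 2.94 ± 0.44 and 2.08 ± 0.43. The lower members were Rgs2, Ier5, Btg1, Klf6 and Klf2. Rgs2, an inhibitor of G protein signalling, differed by -2.13 ± 0.29 and was 199 ± 23.2 in Intestine against 1614 ± 37.9 in Blood.

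Fos itself, the best known immediate early gene, did not pass (0.48 ± 0.38, adjusted p = 0.358). It had 2318 ± 2331 in Skin and 1321 ± 729.7 in Lung but 301 ± 37.7 in Intestine, against 779 ± 270.2 in Spleen. With the Intestine libraries and Skin replicate 1 left out, 25 of the 40 genes were higher and 1 was lower.

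NF-kappaB subunits and feedback genes did not move together: of 29 tested, 4 were higher (13.8%), 7 were lower (24.1%) and 18 did not pass, against 15.8% of all genes in each direction. The 4 that were higher were Tnfaip3, Nfkbia, Nfkbiz and Traf1. Tnfaip3 encodes A20, an enzyme that edits ubiquitin and shuts the pathway down, and Nfkbia encodes IkappaB alpha, which holds NF-kappaB in the cytoplasm, and both are known targets of NF-kappaB. Tnfaip3 had 1328, 2515 and 2035 scaled counts in Lung, 736, 1647 and 1011 in Skin and 90.1, 174 and 217 in Intestine. In the hemopoietic libraries it had 39.2, 23.9 and 22.1 in BM, 58.1, 44.5 and 53.1 in Blood and 81, 57 and 56.4 in Spleen. Lung and Skin were well above all others, and Intestine was above the highest Spleen library by a small step (log2 difference 3.88 ± 0.26, adjusted p = 2.88e-09, F test among barrier tissues 4.73e-05). Nfkbia had 1261 ± 386 in Lung, 967 ± 621 in Skin and 149 ± 23.8 in Intestine, while Blood had 147 ± 21.1, so the Intestine and Blood libraries overlapped. Its log2 difference was 2.23 ± 0.26 (adjusted p = 2.92e-06). The lower members included Cyld and Otulin, deubiquitinases of the pathway, and Bcl10 and Malt1, which carry signals to it. With median-of-ratios scaling 5 were higher and 3 lower, against 19.2% and 9.48% of all genes. Without the Skin libraries 5 were higher and 12 lower, against 22.3% and 18.1%.

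Cytokines and other secreted mediators were higher in 16 of 34 (47.1%) and lower in 3 (8.82%), with a median log2 difference of 1.31. Cxcl2, a chemokine that draws neutrophils through Cxcr2, had 435, 551 and 1203 scaled counts in Lung, 166, 2017 and 1138 in Skin and 56.3, 36.6 and 69.3 in Intestine, against 0.0571 to 56.6 (median 18.8) in the hemopoietic libraries. Lung and Skin were higher than every other library, and the lowest Intestine library lay below Spleen replicate 1 (log2 difference 4.38 ± 0.58, adjusted p = 1.06e-05). Il1a, an alarm cytokine, ran from 2.58 to 89.8 against 0.0483 to 2.56. Only BM replicate 1 came near the lowest barrier library, Skin replicate 1. Ptgs2, the inducible cyclooxygenase, had 1248, 2812 and 3789.9 in Lung, 123, 7386 and 2868 in Skin and 246, 309.7 and 342 in Intestine, against 25.3 to 345. Skin replicate 1 was low for it, while the other 2 Skin libraries held the highest and the third highest values of the barrier side. Tnfsf14, a ligand of the tumour necrosis factor family, was lower in all 9 barrier libraries, at 0.479 to 94.1 against 96.4 to 310.3 (log2 difference -3.60 ± 0.49). Il1b did not pass (0.78 ± 0.37, adjusted p = 0.107). It had 9965 ± 5031 in Lung and 10203 ± 10319 in Skin but 667 ± 74.5 in Intestine, and it passed in 8 of the 38 alternatives.

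The promoter windows of 3 of these genes and of the chaperonin gene Hspe1 are shown because these members were higher together in Lung, Skin or Intestine. RefSeq windows run from 250 bases before to 50 after a start. They were searched on both strands for 6 motifs, and the motifs and windows shown were picked after matches were seen. The AP-1 motif (TGANTCA) was in the windows of 8.97% of all genes and in 2 of the 32 immediate early genes with a window, the cAMP response element in 2.03% and in 4 of 32, and the serum response element in 0.54% and in 1 of 32. The E-box (CACGTG) was in 8.09% of all genes and in 5 of the 16 clock genes with a window. It was also in 9 of the 32 immediate early genes, so it was not confined to the clock list. Of the 26 cytokine and mediator genes with a window, 9 had the AP-1 motif and 8 the NF-kappaB motif. Of the 11467 tested genes with a window, 1259 had the E-box, 803 the AP-1 motif, 378 the cAMP response element and 812 the NF-kappaB motif. The NF-kappaB motif was in the windows of 6.31% of all 27025 genes, of 9 of the 23 NF-kappaB list genes with a window (39.1%), of 7.99% of the genes that were higher with separated means and of 7.97% of those that were lower. The heat shock element was in 0.662% of all genes and in 5 of the 20 heat shock list genes with a window, of which Hspa1a, Hspa1b, Bag3 and Hspb1 had none. A match is a description of letters and not a site. Below, the 250 bases before each start are written 5′ to 3′ on the gene's strand (GRCm38.p6), with matches to the NF-kappaB motif, or in Hspe1 to the heat shock element, in capitals.
Tnfaip3, chr10:19015411-19015660, minus strand: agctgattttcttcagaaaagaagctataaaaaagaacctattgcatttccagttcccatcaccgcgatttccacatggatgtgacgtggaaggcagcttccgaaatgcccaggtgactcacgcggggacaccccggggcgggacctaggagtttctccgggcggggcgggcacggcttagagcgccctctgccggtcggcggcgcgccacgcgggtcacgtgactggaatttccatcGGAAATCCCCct
Nfkbia, chr12:55492648-55492897, minus strand: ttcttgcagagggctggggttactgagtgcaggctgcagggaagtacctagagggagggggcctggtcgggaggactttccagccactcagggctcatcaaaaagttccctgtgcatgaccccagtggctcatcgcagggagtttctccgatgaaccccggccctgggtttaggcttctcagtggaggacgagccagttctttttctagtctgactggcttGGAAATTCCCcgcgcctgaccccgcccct
Cxcl2, chr5:90903649-90903898, plus strand: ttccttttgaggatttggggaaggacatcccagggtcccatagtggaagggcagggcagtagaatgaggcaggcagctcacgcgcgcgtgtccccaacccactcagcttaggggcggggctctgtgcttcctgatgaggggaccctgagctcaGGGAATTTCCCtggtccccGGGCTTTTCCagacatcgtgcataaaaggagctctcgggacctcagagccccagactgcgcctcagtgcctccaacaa
Hspe1, chr1:55087898-55088147, plus strand: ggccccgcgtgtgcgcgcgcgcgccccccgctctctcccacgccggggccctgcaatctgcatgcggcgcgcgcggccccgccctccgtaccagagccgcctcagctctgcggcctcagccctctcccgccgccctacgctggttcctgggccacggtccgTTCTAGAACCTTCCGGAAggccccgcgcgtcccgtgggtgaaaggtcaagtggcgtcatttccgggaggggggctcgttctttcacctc
The Tnfaip3 window shown holds 1 match, the Nfkbia window 1 and the Cxcl2 window 3, which overlap in part. Tnfaip3 has another RefSeq window, before a start further along the gene (chr10:19011964-19012213), which also holds 1 match and is not shown. The Hspe1 window holds 2 overlapping matches, and Hspe1 itself was 128 ± 8.59 in Intestine, 74 ± 25.4 in Skin and 56.9 ± 43 in Lung, against 16.6 ± 9.75 in BM, 5.78 ± 0.908 in Blood and 43.2 ± 16.7 in Spleen. The Spleen libraries overlapped with Lung and with Skin replicate 2.

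Regulators of cytokine and MAP kinase signals were higher in 11 of 30 (36.7%) and lower in 5 (16.7%). Dusp3, a phosphatase of MAP kinases, ran from 28.9 to 377 against 0.344 to 12.1 without overlap, and Rgs1 differed by 3.47 ± 0.52. Spry4, an inhibitor of receptor tyrosine kinase signals, had 31 ± 19.8 in Lung and 36.7 ± 17.2 in Intestine but 0.334 ± 0.292 in Skin, near its level in BM. Angiogenic factors were higher in 15 of 28 (53.6%) and lower in 3 (10.7%). Thbs1, a matrix protein that myeloid cells and platelets also make, had 3410.2, 5027 and 2059.6 in Skin, 574, 786 and 1512 in Lung and 379.5, 529.7 and 439 in Intestine, against 16.3 to 285, with BM the highest of the hemopoietic tissues (log2 difference 4.01 ± 0.25). Pdgfb, Adamts1, Vegfc, Nrp1, Angpt1 and Mmp2 on this list are known from vessels and fibroblasts. The endothelial and stroma sums were higher in every barrier library than in every hemopoietic one. Adamts1 had no estimated reads in Skin replicate 2 (0.216, against 4.08 in Blood replicate 2), and Pdgfb was only 1.08 in that Skin library. In every other barrier library both genes were above all hemopoietic libraries. The part of RNA from such cells in these genes was not tested. Vegfa itself did not pass (0.79 ± 0.36, adjusted p = 0.0987), with 167 ± 20.2 in Lung, 148 ± 127 in Skin and 59.3 ± 11.2 in Intestine against 58.4 ± 11.7 in Blood. Epas1, a hypoxia-inducible factor abundant in endothelium, ran from 46 to 1800.2 against 16.9 to 54.8 and followed the endothelial sum in being highest in Lung.

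MHC class II genes, which present peptides to T cells, were higher in 8 of 17 (47.1%) and lower in none by limma (2 at an unadjusted p under 0.05), but 1 of the 8 had separated tissue means. Cd74, the invariant chain, had 1409 ± 401 in Intestine, 1710.4 ± 1366 in Skin and 521 ± 412 in Lung, and Spleen at 573 ± 174 was inside that range. Markers of macrophages and dendritic cells, which carry MHC class II, were higher in 11 of 21 and 5 of 11. B cell markers went the other way, with none of 14 higher and 6 lower. They summed to 2884 to 5651 scaled counts in Spleen and 3095 to 8297 in Intestine. Without the Intestine libraries and Skin replicate 1, 7 MHC class II genes were higher and 1 was lower. Without the BM libraries 5 were higher, against 11.9% of all genes. Clock genes were higher in 9 of 17 (52.9%) and lower in 1, Per2. Rora had 129, 122 and 182 in Intestine, 70.2, 53.9 and 18.6 in Lung and 255, 0.712 and 35.6 in Skin against 0.901 to 5.95, and the 3 Skin libraries spread over the whole range. Clock itself ran from 26.9 to 336 against 5.9 to 38, with Skin replicate 1 the lowest and Skin replicate 2 the highest barrier library. The clock count fell to 5 higher and 2 lower without the Intestine libraries and Skin replicate 1. The hours at which tissues were taken are not given in the sources used here.

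**Figure D4:**
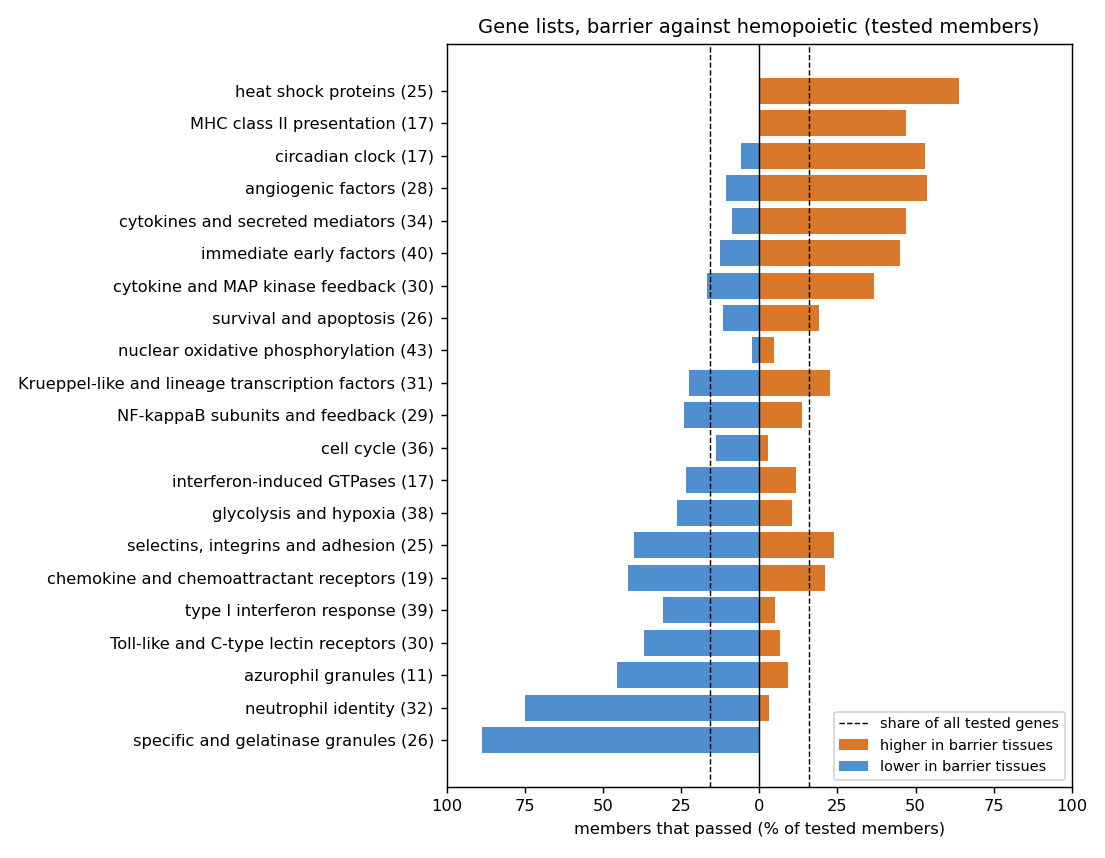
Share of tested members (in brackets) of 21 gene lists that passed as higher (orange) or lower (blue) in barrier tissues, with dashed lines at 15.8% for all tested genes in each direction. With all 18 libraries, heat shock proteins have the largest higher share, 64.0%, and specific and gelatinase granules the largest lower share, 88.5%.

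On the lower side, genes of specific and gelatinase granules stood out: 23 of 26 were lower in barrier tissues (88.5%). The lower share was 15.8% over all genes, and 59.2% over the 1511 genes of at least 100 in every hemopoietic compartment. No gene of the granule list was higher by limma (0 at an unadjusted p under 0.05), and its median log2 difference was -2.47. Proteins of these granules are made in the marrow, and their transcripts are known to fall as neutrophils leave it. Camp, the cathelicidin, had 2541, 3119 and 2758 in BM, 56.5, 93.6 and 252 in Blood and 34.7, 21.1 and 12.3 in Spleen, against 0.221, 0.216 and 12.6 in Skin, 0.131, 2.34 and 0.505 in Lung and 38.1, 4.94 and 1.96 in Intestine. BM was high above all other libraries, and Spleen overlapped with Intestine and Skin (log2 difference -5.76 ± 0.55, adjusted p = 2.17e-07). Ltf and Ngp also fell from BM to Blood to Spleen, with BM means of 7949 ± 218 and 7646 ± 1679.9 and Spleen means of 62.2 ± 31.7 and 51.3 ± 43.3. Barrier libraries overlapped with Spleen for both. Intestine replicate 1, at 99.7 for Ltf and 120 for Ngp, lay above the highest Spleen library, at 96.4 and 101. Lcn2 was lower by -2.94 ± 0.33, but Lung at 383 ± 193 and Skin at 398 ± 323 lay beside Spleen at 355 ± 151. Azurophil granule genes were lower in 5 of 11. Mpo was 35.6 ± 13.7 in BM, already 1.31 ± 1.08 in Blood and 1.28 ± 0.576 in Spleen, and its call was lost without the BM libraries. Ctsc, which activates granule proteases, was the higher member at 2.31 ± 0.34. Leaving out the Intestine libraries and Skin replicate 1, 16 of 26 specific granule genes were lower and none was higher. Without the BM libraries 13 of 26 were lower (against 11.6% of all genes), and with the 6 tissue means as samples 1 of 26 was (17 at an unadjusted p under 0.05).

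Genes that define neutrophils were lower in 24 of 32 (75.0%) and higher in 1, G0s2, with a median of -2.20. The lower share was 15.8% over all genes, and 59.2% over the 1511 genes of at least 100 in every hemopoietic compartment. Ly6g, whose protein was the sorting marker, had 291, 566 and 352 in BM, 102, 237 and 69.3 in Blood and 7.61, 12 and 23.3 in Spleen, then 37.2, 20.1 and 19.9 in Lung, 0.221, 0.216 and 26.9 in Skin and 3.14, 0.41 and 0.346 in Intestine. Lung was above Spleen for this gene, so its tissue means were not separated (log2 difference -3.95 ± 0.55, adjusted p = 1.59e-05). S100a9, an abundant calcium-binding protein of neutrophils, had 2388, 3424 and 7486 in Lung, 608, 8093 and 3879.7 in Skin and 430.3, 267 and 377 in Intestine, against 3482 to 23159. Csf3r, the receptor of the cytokine that drives neutrophil production, was 185 ± 30.8 in Intestine, 1623 ± 1328 in Skin and 2029.6 ± 1136 in Lung, against 2262 ± 433 in BM. The call of Csf3r was lost without the Intestine libraries, where the neutrophil sum was lowest. The list counted 16 lower and 4 higher without the Intestine libraries and Skin replicate 1, against 12.0% and 9.88% of all genes. Those libraries had been picked by the low sum of the same 32 genes, so this count is no independent check of the list. With Intestine and Skin left out the list counted 15 lower and 2 higher, against 6.13% and 11.2% of all genes, with a median of -1.09. With the 6 tissue means as samples limma called none of the 32 lower, and 22 were lower at an unadjusted p under 0.05.

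Receptors for attractants were lower in 8 of 19 (42.1%) and higher in 4 (21.1%). For this list and those below, the lower share was 15.8% over all genes. It was 59.2% over the 1511 genes of at least 100 in every hemopoietic compartment. Cxcr2, the receptor for Cxcl2, had 356, 899.9 and 1699.5 in Lung, 54.4, 1724 and 906 in Skin and 84.7, 55.7 and 92.1 in Intestine against 1357 to 3839. The higher Lung and Skin libraries reached the hemopoietic range, and Intestine and Skin replicate 1 stayed far below it (log2 difference -2.90 ± 0.45, adjusted p = 5.04e-05). Fpr1, which senses bacterial peptides, and C5ar2 differed by -3.42 ± 0.57 and -2.60 ± 0.34. Against this direction, Ccrl2, an atypical receptor that presents chemerin, rose to 476, 1178 and 1401 in Lung, 40.8, 2760.5 and 1399.8 in Skin and 121, 152 and 204 in Intestine, from 6.6 to 62.9 (log2 difference 4.39 ± 0.57, adjusted p = 8.92e-06). Skin replicate 1 was its lowest barrier library. Cxcr4, the receptor that holds neutrophils in the marrow, did not pass (-0.56 ± 0.39, adjusted p = 0.281). It was 75.2 ± 15.9 in Intestine against 557 ± 312 in Lung and 767 ± 823 in Skin, and its difference turned positive without the Intestine libraries.

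Adhesion genes went both ways: of 25 tested, 10 were lower (40.0%) and 6 were higher (24.0%). The leukocyte integrin chains Itgb2, Itgam and Itgal were lower by -2.11 ± 0.25, -2.00 ± 0.27 and -2.10 ± 0.27. Lung replicate 3 reached the hemopoietic range for each. It had 784 for Itgb2 (Spleen replicate 1 had 702), 1348 for Itgam (Spleen replicate 3 had 962) and 982 for Itgal (BM replicate 1 had 742). Each call was lost with the 6 tissue means as samples, and that of Itgal also without the Intestine and Skin libraries. Itgb1, the beta chain of matrix-binding integrins in most cell types, ran from 174 to 851 against 89.2 to 140.2 with all 9 libraries above, and Esam, a junction protein of endothelium and platelets, from 11.9 to 127 against 0.116 to 3.07. Receptors for microbes were lower in 11 of 30 (36.7%) and higher in 2, Cd14 and Tlr3. Their adaptors Tirap and Myd88 were lower by -2.06 ± 0.35 and -1.74 ± 0.32, and Tirap was lower in all 9 libraries. Cd14 had 379 ± 147 in Lung, 215 ± 206 in Skin and 50.7 ± 21.1 in Intestine, where Intestine did not exceed Blood at 54.4 ± 16.3. Type I interferon response genes were lower in 12 of 39 (30.8%) and higher in 2. Without the Blood libraries 3 were lower, against 9.69% of all genes, and the median moved from -0.93 to -0.25. Without the Intestine libraries 4 were lower, against 9.41%, and without the Skin libraries 24, against 18.1%. With median-of-ratios scaling 6 were lower, against 9.48%, and with a weight per library 20, against 18.3%. Oas3, which senses double-stranded RNA, differed by -2.48 ± 0.46 and was highest in Blood, at 3158 ± 1098. Interferon-induced GTPases were lower in 4 of 17, among them Irgm2 (-2.31 ± 0.35), and higher in 2, Iigp1 and Gbp4. Glycolysis and hypoxia genes were lower in 10 of 38 (26.3%) and higher in 4. Hk3, the hexokinase of myeloid cells, was lower in all 9 barrier libraries, at 1.25 to 117 against 146 to 377. The glucose transporter gene Slc2a3 differed by -1.98 ± 0.28. In Lung replicate 3 it had 1537, inside the hemopoietic range of 777 to 1857. Its call was lost without the Intestine and Skin libraries, and with the 6 tissue means as samples.

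Survival, cell cycle and lineage factor genes gave smaller counts. Survival genes were higher in 5 of 26 and lower in 3, near the 15.8% of all genes. Mcl1, which neutrophils need to live, was 3130.2 ± 1677 in Lung, inside the range of BM at 1989 ± 142 and Blood at 3833 ± 418, and 447 ± 56.2 in Intestine. Its call was lost without the Intestine libraries. Cell cycle genes were lower in 5 of 36 (13.9%), a share below the 15.8% of all genes, and higher in 1. Mki67 was one of those lower, by -1.76 on the log2 scale. Among lineage factors 7 of 31 were higher and 7 lower. Klf4 ran from 20.3 to 264 (median 118) against 5.16 to 23.6 (median 11.3) (log2 difference 3.26 ± 0.42), and Cebpe, which is needed for specific granules, was 99.3 ± 34.1 in BM and at most 7.26 as a mean of any other tissue.

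Some abundant neutrophil genes were lower in every barrier library, Lung included. Sorl1, a sorting receptor, had 822, 1564 and 1830.2 in Lung, 233, 1649 and 1328 in Skin and 149, 131 and 201 in Intestine, against 3198 to 4915 (log2 difference -2.84 ± 0.29, adjusted p = 4.27e-07). Slc40a1, the iron exporter ferroportin, ran from 61.9 to 616 against 791 to 1883, and Il17ra, a receptor chain for interleukin 17, from 86.9 to 1023 against 1151 to 2525. Mgam, a glucosidase known from the intestinal brush border, ran from 15.2 to 178 against 202 to 725, and the ion channel Trpm2 from 10.1 to 264 against 319.7 to 965. None of these 5 genes overlapped between the sides, and 204 of all tested genes (1.26%) had all 9 barrier libraries below the others. They were chosen after their values were seen.

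Without the Intestine libraries and Skin replicate 1, 9.88% of all genes were higher and 12.0% were lower, and the remaining lists counted as follows. Cytokines and secreted mediators were higher in 15 of 34 and lower in 2, and angiogenic factors in 10 of 28 and 4. Cytokine and MAP kinase regulators were higher in 8 of 30 and lower in 5. Attractant receptors were higher in 6 of 19 and lower in 5, and adhesion genes in 4 and 7 of 25. Receptors for microbes were higher in 4 of 30 and lower in 5. Type I interferon genes were lower in 4 of 39 and higher in 1, and glycolysis and hypoxia genes were lower in 6 of 38 and higher in 6. Lineage factors were higher in 8 of 31 and lower in 3, and cell cycle genes were lower in 8 of 36. Survival genes were higher in 4 of 26 and lower in 2, interferon-induced GTPases were higher in 2 of 17 and lower in 1, and azurophil granule genes were higher in 1 of 11 and lower in 2. NF-kappaB subunits and feedback genes were higher in 6 of 29 and lower in 3, and nuclear oxidative phosphorylation genes were lower in 1 of 43.

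With the 6 tissue means as samples, 2.48% of all genes were higher and 0.786% were lower, and few list members passed. Immediate early factors were higher in 5 of 40, cytokines and secreted mediators in 4 of 34, and cytokine and MAP kinase regulators and clock genes in 2 each. At an unadjusted p under 0.05 the same 4 lists had 15, 15, 11 and 8 higher genes. No MHC class II gene passed by limma in this fit, and 6 were higher at an unadjusted p under 0.05. Of type I interferon genes and receptors for microbes none passed as lower, and 9 and 11 were lower at an unadjusted p under 0.05.

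**Figure D5:**
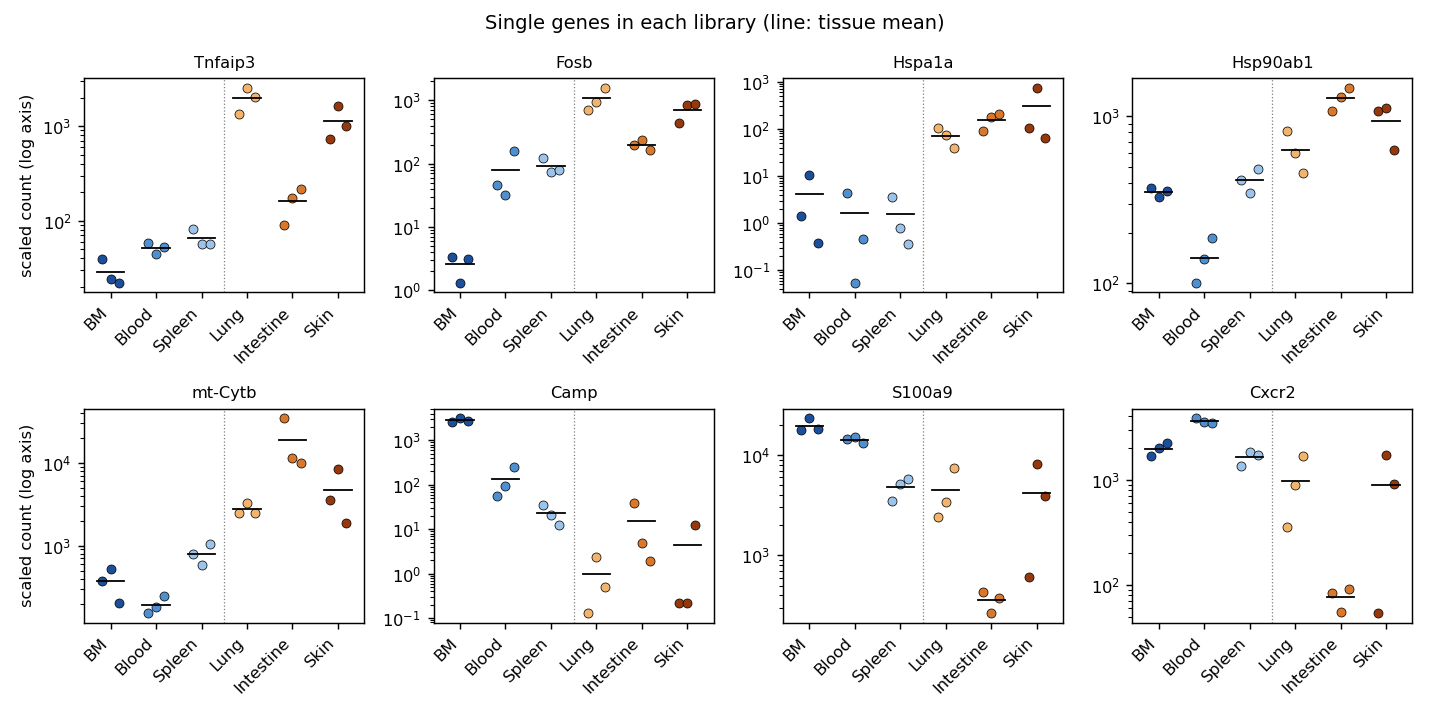
Scaled counts (log axis) of 8 genes in each library, BM, Blood and Spleen left and Lung, Intestine and Skin right of the dotted line, with lines at tissue means. Tnfaip3, Fosb, Hspa1a and mt-Cytb have all 9 barrier libraries above the others, while Cxcr2 and S100a9 are far lower in Intestine and Skin replicate 1 than in the other barrier libraries.

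The barrier tissues were not a uniform side. By an F test among Lung, Intestine and Skin, 3146 genes differed (19.5%), against 138 (0.854%) among BM, Blood and Spleen. In these tests each gene had a single spread for all tissues. Residual SDs of libraries (log2) ran from 1.28 to 1.57 in Skin and from 0.534 to 0.952 in the hemopoietic libraries. The part of this unequal spread in the gap between the counts was not tested. With a weight per library 3039 genes differed among the barrier tissues, and without the Skin libraries 2505 differed between Lung and Intestine. Of the 1741 higher genes with separated means, 582 (33.4%) also differed among the barrier tissues, and of the 1910 lower genes 434 (22.7%). Intestine had the highest mean in 1119 of the 1741 higher genes, Skin in 327 and Lung in 295. Among the 1910 lower genes, Intestine was lowest in 936, Skin in 889 and Lung in 85. The counts were 1548 higher and 1521 lower without the Intestine libraries, and 3600 and 2931 without the Skin libraries. At the edge of the rule, Prkd1 was just inside the higher set, with a gap between the nearest tissue means of 0.000621 on the log2 scale, and Mmp28 was just outside. On the lower side Adap1 was just inside and Fam69a just outside.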

How the data were processed

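The members, gene lists and comparison were chosen with earlier results of these data known. The deposited table holds 32328 genes in 18 libraries and its file name speaks of TPM, but its values are estimated counts plus 0.5, divided by an effective library size (as in CPM), with no division by length. They are therefore a depth-scaled signal (scaled count), as the authors deposited it. Per the submitters' processing notes, CASAVA, RSEM 1.3.1, limma and mm10 were used. Symbols came from GENCODE vM21, which matched 31820 gene IDs.

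The 16157 genes whose value reached 1 in 3 or more libraries were tested on log2(value + 1) with limma 3.58.1 (R 4.3.3), 6 tissue means and a trended prior, 12 residual degrees of freedom. The contrast was the mean of Lung, Intestine and Skin minus the mean of BM, Blood and Spleen, adjusted by Benjamini-Hochberg over all genes at 0.05. Fold changes on this scale understate those of low genes. Named genes were the 10 widest gaps per direction (mean of at least 20 in each tissue of the higher side), the 4 smallest adjusted p of each of 21 lists, a fixed set of 15, and 42 chosen after values were seen. The 15 lists of other cells were described by counts. Same-numbered libraries did not vary together (median correlation -0.00333, range -0.0604 to 0.106 over 45 pairs).

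On simulated data the test was run with 2 versions of library noise. The first used an arbitrary smaller noise and recovered more; it was replaced by the residual spread corrected for fitting 3-library means, and only that harsher version is quoted. It called 5 of 15850 unchanged genes. There were 38 alternatives, of which 2 were added after the low neutrophil genes in Intestine and Skin replicate 1 were seen. No column of per-sample values was left unused. Some genes that the naming rule chose are not reported here.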

Additional observations from a re-analysis of the deposited data

Results flagged for a closer look

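By the F test, 3146 genes differed among Lung, Intestine and Skin, so the difference from the hemopoietic side was not the same in each barrier tissue. Of the genes named by the fixed rule, 4 had barrier means both above and below all 3 hemopoietic means, as did 2972 of all genes, 968 of them with a called F test. Spry4 (adjusted p = 0.000302) had 31 ± 19.8 in Lung and 36.7 ± 17.2 in Intestine but 0.334 ± 0.292 in Skin. BM had 0.335 ± 0.219, so Skin and BM did not differ by more than their SDs, and the place of Skin below all 3 hemopoietic means is no measured difference. Il1b (adjusted p = 0.000537) had 9965 ± 5031 in Lung and 10203 ± 10319 in Skin but 667 ± 74.5 in Intestine, against 914 ± 188 in BM. Cxcr4 (adjusted p = 0.00902) was 75.2 ± 15.9 in Intestine and 557 ± 312 in Lung, against 372 ± 58.8 in BM. Fos (adjusted p = 0.0355) was 301 ± 37.7 in Intestine and 1321 ± 729.7 in Lung, against 366 ± 116 in BM. For Il1b, Cxcr4 and Fos, Intestine was the low tissue, where the neutrophil marker sum was lowest too, and the part of that in the result was not tested. Dixon's test of a single outlying library was not run, since no tissue has more than 3 libraries.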

How the results depend on the processing

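Counts of genes higher and lower stayed within 1.5 times under other pseudocounts, filters, quantile normalization, library weights and a robust prior. With 6 tissue means as samples 82 of the 141 genes that passed among those chosen to be named no longer did, and the counts were 401 and 127, all with separated means. With median-of-ratios scaling 1532 were lower, 1125 with separated means. Without the Intestine libraries 1548 were higher and 1521 lower, and 1183 differed among the barrier tissues left. Without the Blood libraries 1566 were lower. Without the Skin libraries 2922 were higher with separated means. Without Intestine and Skin together 990 were lower, 964 with separated means. Without the Intestine libraries and Skin replicate 1 together 1596 were higher. Leaving out 1 library at a time gave 2256 to 3230 genes higher, 2115 to 3074 lower, 1496 to 2114 higher with separated means, 1398 to 2147 lower with separated means, and 2320 to 4836 differing among barrier tissues, where 4836 came without Skin replicate 1. With a replicate block 2553 were higher and 2558 lower, 1749 and 1920 with separated means and 3060 among barrier tissues. Same-numbered libraries did not vary together over all genes, but this cannot show whether they shared an animal, which the labels do not say. Differences that changed sign, none of them called in the new direction but Pax5, were as follows. Cxcr4 was 0.32 without Intestine, 0.41 without Intestine and Skin, and 0.87 without Intestine and Skin replicate 1. Sdhb was 0.083 without Intestine and Skin. Jchain was -0.019 to 1.24 with 1 library left out at a time (-0.019 without Skin replicate 2), -0.28 without Blood, -1.78 without Intestine, -0.96 without Intestine and Skin, and -1.02 without Intestine and Skin replicate 1. Ighm was 0.36 without Spleen and 0.16 without Intestine and Skin. Pax5 was 1.26 without Spleen, 0.24 without Skin and 1.90 without Intestine and Skin. Dnajb1 was 0.50 without Skin and 1.18 without Intestine and Skin. Estimated reads were fewest in Lung replicate 1 (2935582). The effective library size, which sets the scaled counts, was smallest in Skin replicate 2. That library also had the fewest genes above its lowest value, 9158 against 13182 in Lung replicate 1. The spread between libraries was widest in Skin.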
